A study of Drosophila melanogaster with 18 samples.

Results

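Osa is the subunit that marks one form of the fly SWI/SNF chromatin remodelling complex, and its chromatin immunoprecipitation (ChIP) in control cells was compared here with input chromatin, feature by feature. The cells were OSCs, ovarian somatic cells grown in culture and derived from Drosophila follicle cells, 2 days after RNA interference against EGFP, which served as the control treatment. The Osa ChIP used an anti-Osa antibody, the input made for it used none, and there was 1 library a side. Of 35502 deposited rows, which are RefSeq transcripts and transposon families, the 17751 rows at or above the median RPKM of the Osa input were kept. Taking the longest transcript of each gene and leaving out transposons of other species gave 9553 features, of which 9443 were genes and 110 were transposon families. The same ratio was then formed over a second control input from cells of the same treatment, the one that the Brm and Polybromo ChIP libraries shared, which kept 12230 features (12115 genes and 115 transposon families). There were no replicates, so differences could not be set against replicate spread and are given without p-values.

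SWI/SNF complexes use the energy of ATP, hydrolysed by Brahma (Brm), to slide or evict nucleosomes. In flies they come in a BAP form, which contains Osa, and a PBAP form, which contains Polybromo and Bap170 in its place. Osa carries an ARID domain that binds DNA and is known from genetic studies of wing and eye development, among them studies of Wingless and Notch target genes. In follicle cells the nuclear Argonaute protein Piwi, guided by piRNAs, keeps transposons silent, above all LTR retrotransposons of the gypsy superfamily.

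Enrichment is given as log2 of ChIP RPKM over input RPKM, with the 5th percentile of the nonzero input values added to both (0.509 RPKM for the Osa input and 0.503 RPKM for the other), relative to the median kept feature. RPKM are reads scaled to feature length and library size, computed by the authors over transcripts and transposon sequences, so promoters outside transcripts and intergenic DNA are not covered. The Osa ChIP library held 1553849 reads, the Osa input 925187 and the other control input 1336118, and the listed rows held 29.7%, 38.6% and 31.9% of them. A kept feature had a median of 13 reads in the Osa input and 8 in the ChIP, against 166 and 286.5 for a transposon family, and 18.1% of kept features had no ChIP read. Intervals in brackets are 95% Clopper-Pearson intervals of the read ratio. Reads copied by PCR are not independent molecules, so these intervals cover counting error only. By RNA the control cells expressed 6 of 7 follicle cell markers at 1 RPKM or more, tj at 93.3 and piwi at 81.5, whereas ct was at 0.106, and of 8 germ line markers 3 reached 1 RPKM, krimp at 54.8 and spn-E at 10.2 among them, with vas at 0.298 and osk at 0.

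The 2 control inputs differed widely from each other, by 2-fold calls about as often as the ChIP from its input and by counting intervals less often. Over its own input, 2410 of 9553 features (25.2%) stood at least 2-fold above the median feature with Osa and 2867 (30%) at least 2-fold below. With the other input as denominator these were 3134 of 12230 (25.6%) and 4111 (33.6%). The Osa input divided by the other input put 27.1% of features 2-fold above the median and 35.7% 2-fold below. Among 2274 genes with at least 40 reads over both inputs together, 46.3% had a counting interval that left out the median gene, against 59.96% of 2430 genes for the Osa ChIP and its input and 23.6% of 4283 genes for the Brm ChIP and its input. A 2-fold value over a single input was therefore read only beside its value over the other. Over both inputs at once, 1342 of 7696 shared features (17.4%) were 2-fold above and 1721 (22.4%) 2-fold below.

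Transposons stood above genes in Osa enrichment over the Osa input and below them over the other control input. Their median was 1.32 over the Osa input and that of genes was -0.02, a difference of 1.34. Over the other input the medians were -0.40 and 0.01, a difference of -0.41. The Osa input itself was lower than the other input at transposons, by a median of -1.06 relative to genes, and 101 of the 110 families lay below the median feature in that ratio. Both signs were also seen among features of like depth. Over the Osa input the difference was 1.33 for features with 20 to 50 input reads, 1.61 for 50 to 100 and 1.38 for 100 to 200. Over the other input it was -0.29, -0.89 and -0.29 in these classes. Above 200 reads, where 50 families but only 7 genes lay over the Osa input, the differences were 0.22 and -0.25. The sign of the difference thus depended on which input was the denominator.

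Of the 110 families kept over both inputs, 74 were at least 2-fold above the median feature over the Osa input, where the background is 25.2%. Over the other input 12 of the 110 were, where it is 25.6%. All 12 were among the 74, against a background of 17.4% for both. They were 8 gypsy superfamily elements (gypsy5, Dm17.6, Stalker2, Quasimodo, springer, ZAM, gtwin, invader4), the LINE elements Juan and HeT-A, and the DNA transposons NOF and hopper2. Where the name of an element is a bare number, Dm is written before it. Another 8 families were 2-fold above over the Osa input and 2-fold below over the other: Circe, Stalker, Burdock, gypsy11 and gypsy3 of the gypsy superfamily, rooA of the BEL-Pao superfamily, and the DNA transposons transib1 and Bari1. Across the 110 families the Spearman correlation of both ratios was 0.67. They share the ChIP library, so this figure describes how families keep their order and is no measure of reproducibility.

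**Figure D1:**
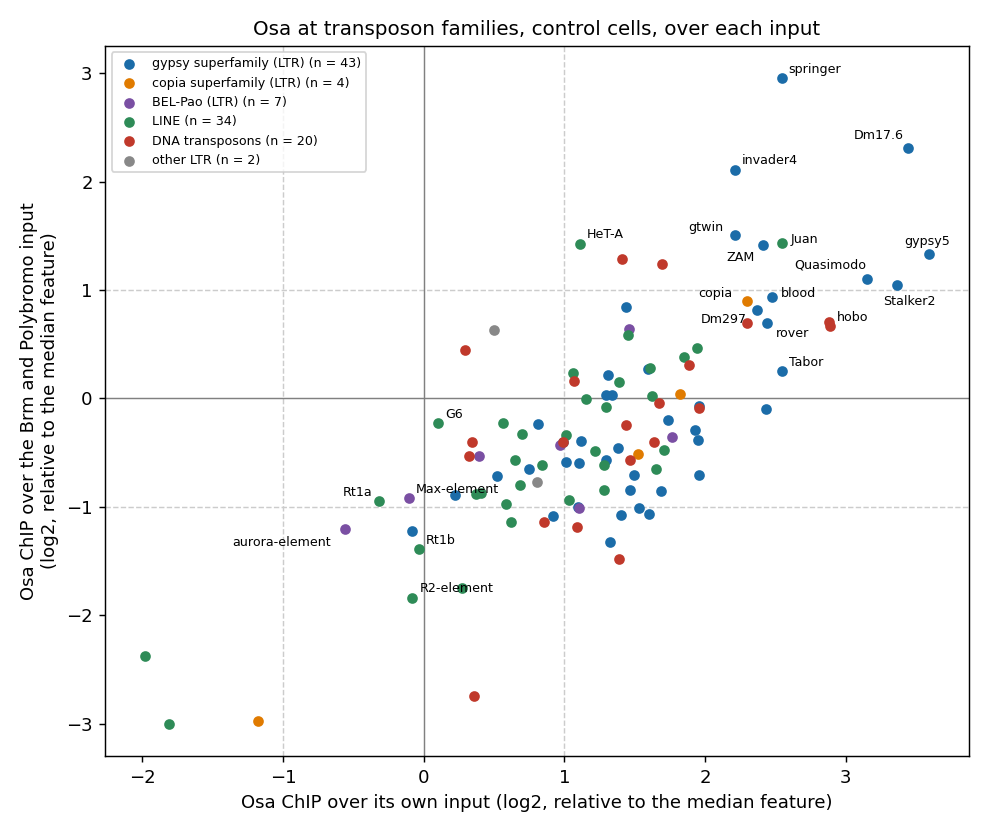
Osa enrichment of 110 transposon families over the Osa input (x axis) and over the Brm and Polybromo input (y axis), both log2 relative to the median feature, 1 point a family, coloured by class. Most points lie right of 0 and below it, with 101 families above 0 on the x axis and 38 on the y axis, springer, Dm17.6 and invader4 are the highest on the y axis, and gypsy5, Dm17.6 and Stalker2 the farthest right on the x axis.

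The order of the classes was much alike over both inputs, although the sign was not. Gypsy superfamily elements, LTR retrotransposons that in follicle cells include the elements able to infect the germ line, had medians of 1.53 over the Osa input (43 families) and -0.34 over the other (44). DNA transposons, which move by cutting and pasting, had 1.42 (20) and -0.24 (21). LINE elements, retrotransposons without long terminal repeats, had 1.02 (34) and -0.57 (35). BEL-Pao elements had 0.97 and -0.53 over 7 families. The 4 copia superfamily elements had 1.67 and -0.23. Within the gypsy superfamily, 36 of 43 were 2-fold above over the Osa input, where the background is 25.2%. Over the other input 8 of 44 (18.2%) were, below the background of 25.6%.

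Families listed as Piwi-sensitive in OSCs stood above the median of all transposons over each input. Of the 14 names listed, 13 were kept, with a median of 2.41 over the Osa input and 0.94 over the other. All 13 were 2-fold above over the Osa input and 6 of 13 over the other, with none 2-fold below. Of the 110 families kept over both inputs, 74 and 12 were 2-fold above, and of all features 25.2% and 25.6%. Both ratios share the ChIP library. The names were taken from general knowledge of OSCs with earlier results of these data known, so the group is not independent evidence. Not all of its members had more RNA without Piwi: springer had 4016 RPKM in control and 3801 in Piwi-depleted cells and ZAM 1.69 and 2.05, while Quasimodo had 40.5 and 918. Over the same shared input the median of these 13 was -0.22 with Brm and -0.10 with Polybromo.

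The element springer, a gypsy superfamily retrotransposon, took more Osa ChIP reads than all other transposon families together. It had 6935 RPKM in the Osa ChIP, 3063 in its input and 1757 in the other input, from 81321, 21381 and 17710 reads. Its enrichment was 2.54 (2.52 to 2.57) over the Osa input and 2.95 over the other, the only family whose Osa values were past 2.5 over both. It made up 5.23% of all Osa ChIP reads and 52.2% of those on transposons, against 2.31% of the reads of the Osa input, 1.33% of the other input, 2.44% of the Brm ChIP and 1.82% of the Polybromo ChIP. It was also strongly expressed in the RNA of control cells, at 4016 RPKM. The 2 inputs differed at springer as well, with 0.94 for the Osa input over the other, against a median of -1.05 over all 115 families.

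Springer decided the sign of the summed transposon signal over the second input. Summed over the longest transcripts, genes held 11.4% of the Osa ChIP reads, 18.8% of the Osa input and 13.0% of the other input. Transposons held 10.0%, 6.35% and 10.0%, respectively. Transposon reads per gene read were thus 1.38 higher (log2) in the ChIP than in the Osa input and 0.19 higher than in the other input. Without springer the values were 0.97 and -0.67, so the sum turned negative over the other input. The remaining families held 4.80% of the ChIP, 4.04% of the Osa input and 8.72% of the other input.

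**Figure D2:**
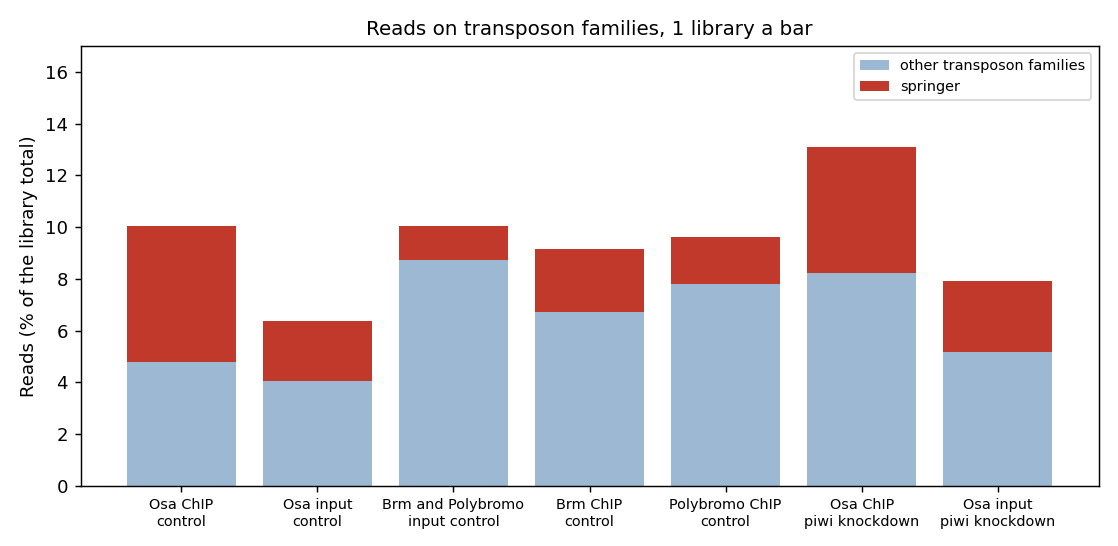
Reads on transposon families as a percent of each library's total, 1 bar a library, with springer drawn apart. Springer is 5.23% of the control Osa ChIP, 2.31% of its input and 1.33% of the Brm and Polybromo input, and the remaining families are 4.80%, 4.04% and 8.72%.

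Dm17.6, a gypsy superfamily element with an envelope gene, was next to springer the highest family over the other input. It had 512 RPKM in the ChIP, 121 in the Osa input and 203 in the other input. The values were 3.44 (3.34 to 3.55) and 2.31. Its RNA, 13.5 RPKM, was far below that of springer. Across families the Spearman correlation of Osa with RNA was 0.26 over the Osa input (110 families) and 0.39 over the other (115), ratios that share the ChIP library.

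Gypsy5 had the highest value over the Osa input of the families with at least 20 reads in each library. It had 27.3, 5.43 and 21.1 RPKM in the ChIP, the Osa input and the other input, which gave 3.60 (3.20 to 4.23) and 1.34. Its ChIP level lay close to the other input, and it had 37 reads in the Osa input. Stalker2 was alike, with 76.7, 18.7 and 72.9 RPKM and values of 3.37 and 1.04. Quasimodo had 275, 79.3 and 251 RPKM and values of 3.15 and 1.10.

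Other families stood above the median over both inputs with levels in the 2 inputs that were closer to each other. Invader4 had 228 RPKM in the ChIP against 126 and 103 in the inputs, with 2.21 and 2.11. Juan, a LINE element, had 431 against 190 and 312, with 2.55 and 1.44. ZAM, one of the elements controlled by the flamenco piRNA cluster, had 44.7 against 21.4 and 32.7, with 2.41 and 1.42. Gtwin had 25.6 against 14 and 17.5, with 2.21 and 1.51. HeT-A, which with its relatives forms the fly telomere, had 60.7 against 72.7 and 44.2, with 1.11 and 1.43. Before centring, HeT-A was thus below its own input and above the other.

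Some families were near or below the median feature over the Osa input. Aurora-element, of the BEL-Pao superfamily, was the lowest of those with at least 20 reads in each library, with 14.5 RPKM in the ChIP against 56.5 and 67.4 and values of -0.56 (-0.96 to -0.25) and -1.21. Rt1a, a LINE element, had 40.7 against 132 and 155, with -0.32 and -0.95. Rt1b had 84.8 against 224 and 438, with -0.03 and -1.39. R2-element, which inserts into ribosomal RNA genes, had 3.75 against 11.1 and 29.3, with -0.08 and -1.84. Max-element had -0.10 and -0.92, and G6 had 0.10 and -0.23. These 6 were below the median over the other input, and 3 of them 2-fold below it. With fewer ChIP reads, Helena (4 reads), Q-element (3) and frogger (5) were lower still, at -1.98, -1.81 and -1.18 over the Osa input.

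Over the shared input, Osa varied among transposon families far more than Brm or Polybromo did. Its values ran from -3.0 to 2.95 over the 110 families, with an SD of 1.0. Those of Brm ran from -0.88 to 1.05 (SD 0.288) and those of Polybromo from -1.74 to 1.45 (SD 0.327). The lowest Osa value was that of Q-element, on 3 ChIP reads. This input was made for Brm and Polybromo and not for Osa. The Osa input, made without antibody, also spread widely over it, with 56 of the 110 families at least 2-fold below the median feature. Its part in the spread of Osa was not tested. Over all 12230 features Brm was 2-fold above the median at 9.25% and 2-fold below at 8.26%, and Polybromo at 9.44% and 12.4%. The transposon medians relative to genes were -0.41, -0.34 and -0.11, so the typical family was slightly low with each antibody. Springer was the highest family with Osa (2.95) and with Brm (1.05), and had 0.59 with Polybromo. HeT-A was high with all 3 antibodies, at 1.43, 0.89 and 0.78. The Osa input, made without antibody, was also high there, at 0.85 over the same shared input. Dm17.6 had -0.22 with Brm and 0.02 with Polybromo, and Stalker2 -0.19 and -0.05, so the height of these families in the Osa library was not seen in the other libraries. Quasimodo had -0.41 with Brm and 1.45 with Polybromo. Ratios of the 3 ChIP libraries share the input, and the ChIP libraries differ in total from 992734 to 2779826 reads.

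**Figure D3:**
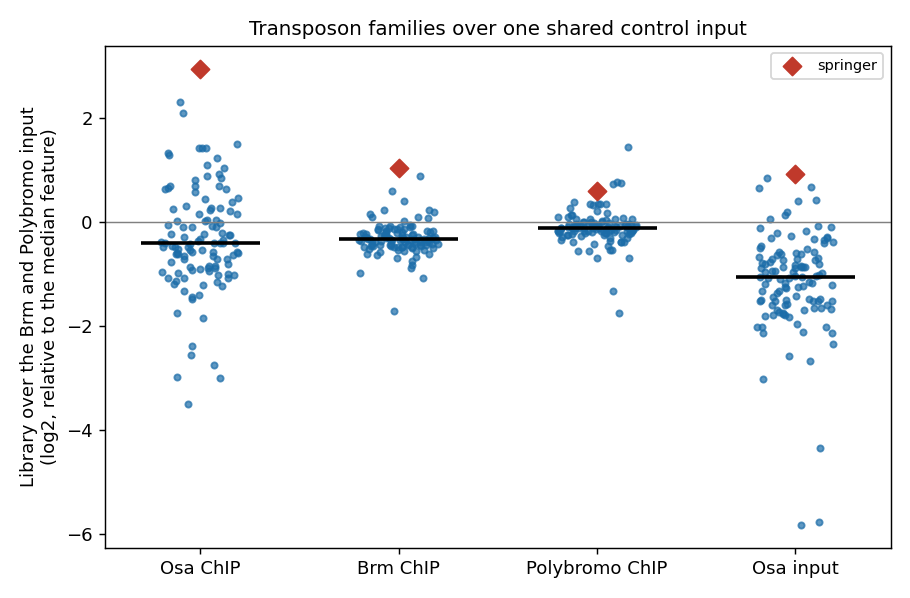
Transposon families over the control input of Brm and Polybromo (log2, relative to the median feature), for the ChIP libraries of Osa, Brm and Polybromo and for the Osa input, 1 point a family, with the median over 115 families as a bar and springer as a diamond. Osa and the Osa input spread widely, with medians of -0.40 and -1.05, and Brm and Polybromo lie close to 0.

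In cells depleted of Piwi, a second pair of Osa libraries was made, with its own input. There the transposon median stood 0.63 above that of genes. The 10 highest families of the control were taken among those with at least 20 reads in each library. Of these 10, 9 were 2-fold above the median feature, where 22.9% of all 8571 features were. Looper1, left out by that floor with 4 Osa input reads, had 2.88 in the control and -1.44 in this pair. Quasimodo had 4.32, Dm17.6 4.22, Stalker2 2.49, Juan 2.13, springer 1.67, Tabor 1.5 and hobo 0.36. The Spearman correlation with the control was 0.58 over 108 families, which share no library but come from the same cell line. The same correlation was 0.26 over 1023 genes with at least 20 reads in both control inputs.

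The genes with the highest Osa enrichment included the BMP receptor gene tkv and the phosphatase gene puc. Among 1185 genes with at least 20 reads in both the ChIP and the Osa input, the 12 highest lay between 3.13 and 4.49. At 11 of them the value over the other input was also past 2-fold, where the background is 25.6%. Both ratios have the same ChIP library as numerator and the genes were chosen for a high one, so nothing is read from that count. At the 12th (CG31431) the other input had too few reads to be kept. All 12 were 2-fold above in the Piwi-depleted pair too, where 22.9% of all 8571 features were. At 9 of the 12 the Osa input was itself at least 2-fold above the other input.

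The long noncoding RNA gene lncRNA:CR44204 (chromosome 2R, 7431696 to 7432496) had the highest value. It had 274 RPKM in the Osa ChIP, 31.0 in its input and 9.34 in the other input. The values were 4.49 (3.90 to 5.18) and 5.77, with 3.26 for Brm and 1.51 for Polybromo. It overlaps so, the gene of the eye transcription factor Sine oculis, and reads of overlapping genes cannot be told apart. Its RNA was 0.28 RPKM in control cells. Among the genes named below, puc, CG3277, Lime, Cipc, brwl, htk, dlt, Myc, Snoo and spn-E also overlap other genes. Their values may thus not be theirs alone.

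At tkv (chromosome 2L, 5219000 to 5271384), a type I receptor of the BMP pathway, the RPKM were 40.8 in the ChIP, 9.86 in the Osa input and 3.31 in the other input. The values were 3.36 (2.88 to 3.99) and 4.41, with 2.01 for Brm. Puc (chromosome 3R, 8105332 to 8122294), the phosphatase that restrains JNK signalling, had 27.3, 7.41 and 3.08 RPKM and values of 3.18 and 3.93. At both genes the ChIP stood above each input. Several other genes lie within the tkv locus, among them TpnC25D.

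Best2 (chromosome 3L, 6245933 to 6256665), a chloride channel gene of the bestrophin family, had 44.6 RPKM in the ChIP and 6.70 and 5.28 in the inputs. Its values, 4.01 and 3.94, were almost the same over both. CG3277 had 37.6 against 6.22 and 5.38 RPKM and values of 3.87 and 3.67. These 2 genes had the closest inputs of the 12.

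Lime, a zinc-finger gene, had 68.5 RPKM against 16.4 and 7.79. Cipc had 60.9 against 14.3 and 4.66, stas 58.6 against 15.0 and 6.23, and brwl 55.4 against 14.3 and 6.78. Over the Osa input these 4 genes lay between 3.28 and 3.42. In each of them the Osa input lay above the other input. The noncoding genes lncRNA:CR44809 and asRNA:CR45330 had 3.53 and 3.29, and the second of them overlaps a U2 small nuclear RNA gene.

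**Figure D4:**
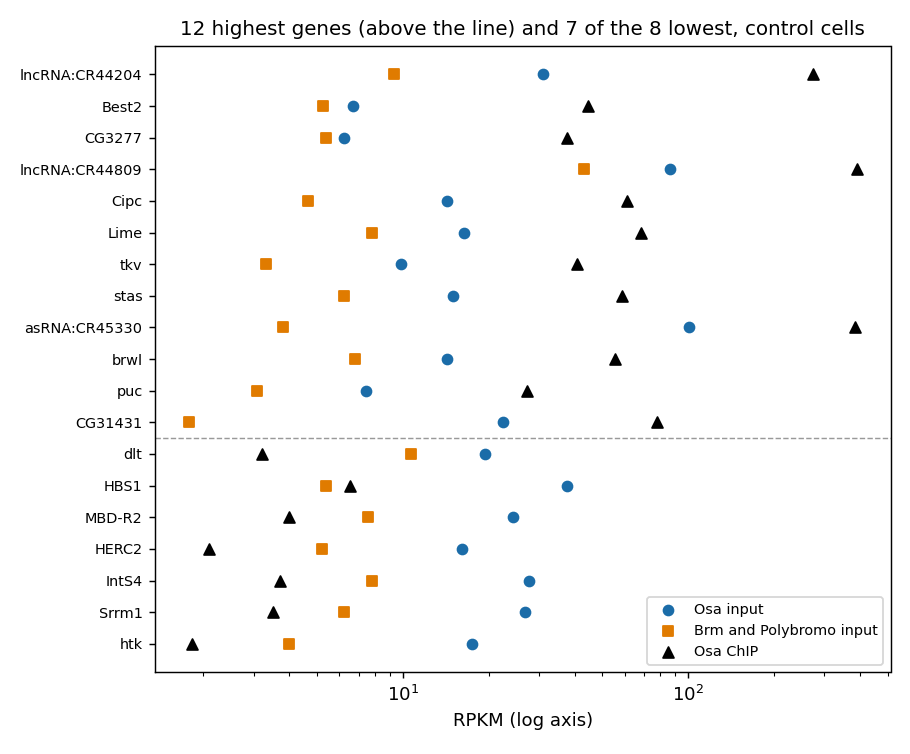
RPKM (log axis) of the 12 highest and 7 of the 8 lowest genes by Osa over its own input, among 1185 genes with at least 20 reads in both libraries, in the Osa ChIP, the Osa input and the Brm and Polybromo input, 1 library a symbol. At the 12 highest the ChIP is right of both inputs, and at the 7 low genes it is left of the Osa input and near or left of the other.

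Of the genes with at least 20 ChIP reads, the lowest over the Osa input were not 2-fold low over the other. Of all shared features, which include genes with fewer ChIP reads, 22.4% were 2-fold low over both. A gene with 20 ChIP reads can be 2-fold low over the other input only with many reads there. The median gene kept over that input had 9. The count over the other input was thus largely set by the floor on ChIP reads, and nothing is read from it. Of the 8 lowest of the 1185, 7 are given here: htk, Srrm1 (a splicing factor), IntS4 (an Integrator subunit), HERC2 (a ubiquitin ligase), MBD-R2 (a subunit of the NSL complex), HBS1 (a ribosome rescue factor) and dlt. Their values ran from -1.58 to -1.06 over the Osa input, and 0 of the 7 was 2-fold below over the other, where they ran from -0.61 to 1.23. At htk the ChIP had 1.83 RPKM, the Osa input 17.5 and the other input 3.98. At HBS1 these were 6.54, 37.6 and 5.39 RPKM. In 6 of the 7 the Osa input was at least 2-fold above the other input.

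A further set of genes had no Osa ChIP read at all. Of 2908 kept genes with at least 20 input reads, 211 (7.26%) had 0 ChIP reads, and of 744 with at least 40 input reads, 19 did. All 19 had an Osa input at least 2-fold above the other input. Rpn1, a proteasome subunit, had 0 ChIP reads against 59 in the Osa input and 34 in the other input, and was low over both, as were pont, with 31 and 23 input reads, and RpS24, with 27 and 9. A count of 0 allows up to 3 reads, so these genes were not detected in the ChIP at this depth.

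Genes with high Osa enrichment over the Osa input also had high Brm enrichment over the other input, a ratio with which they share no library. Among 2908 genes with at least 20 Osa input reads, the 93 that were at least 4-fold above the median with Osa had a median Brm value of 1.28, and 61.2% of the 85 with a Brm value were 2-fold above with Brm. Over all these genes the median was 0.18 and the share 12.7%, and over all 12230 features the share was 9.25%. For the 407 genes at least 2-fold above with Osa the Brm median was 0.73 (38.8% 2-fold above), and for the 892 at least 2-fold below it was 0.11 (7.38%). Polybromo followed with 0.66, 0.41 and 0.09 in these 3 classes. In the Piwi-depleted Osa pair 70.7% of the 92 genes measured of the 4-fold class were 2-fold above, against 25.3% over all of these genes. The Osa input over the other input was 1.24 in the 4-fold class and 1.84 in the 2-fold low class, and its part in these differences was not tested. Across 1108 genes with 20 reads in both inputs the Spearman correlation of Osa (own input) with Brm was 0.28.

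Genes of developmental signalling pathways were mostly above the median feature over each input. Of 14 kept Notch pathway genes, 9 were 2-fold above over the Osa input (median 1.36) and 8 of 14 over the other (1.09). For the EGF receptor pathway these were 12 of 19 (1.18) and 10 of 17 (1.52). For the Hippo pathway they were 8 of 16 (0.83) and 9 of 14 (1.5), and for the ecdysone response 7 of 13 (1.08) and 7 of 14 (0.91). The backgrounds are 25.2% and 25.6%. Both Osa ratios have the same ChIP library as numerator. In the Piwi-depleted Osa pair the medians of these 4 lists were smaller, 0.28, 0.63, 0.70 and 0.34, where that of all features was 0.03. Brm over the shared input also had smaller medians in the same lists, 0.24, 0.54, 0.18 and -0.02. With at least 20 input reads the Osa medians over its own input were 1.45 for Notch (4 genes), 0.83 for the EGF receptor (12), 0.35 for Hippo (10) and 0.90 for ecdysone (9), where that of all features was -0.22. With all transcripts of a gene summed the ecdysone median fell to 0.21. Genes of the wingless pathway itself had 5 of 17 and 3 of 14, close to the background. A median above that of all features was not particular to signalling lists. Germ line genes had 0.62 and 0.44 over the Osa and the other input, neuronal genes 0.65 and 0.56 and innate immunity genes 0.89 and 0.60. Other lists, cuticle protein and muscle genes among them, had medians below 0 over both.

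Single genes of these lists show the range. Myc, the growth regulator counted in the Hippo list, had 11.2 RPKM in the ChIP, 3.89 in the Osa input and 4.16 in the other input, with 2.77 (2.34 to 3.47) and 2.29. Fj (four-jointed), a Golgi kinase of the Fat and Dachsous pathway, had 52.0, 23.1 and 6.53 RPKM, with 2.52 and 3.87. Jub, at the other end, had 2 ChIP reads against 20 input reads and -1.70.

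E(spl)m3-HLH, a direct target of Notch signalling, had 37.5 RPKM against 33.1 and 5.16, with 1.54 and 3.72. Ras85D, the fly Ras of the EGF receptor list, had 2.19 and 1.68. Snoo, a corepressor of the Ski family, had 33.8 RPKM against 12.3 and 13.4, with 2.79 and 2.27. In the wingless list the pathway inhibitor nkd had 2.24 and 2.26, while arm, the fly beta-catenin, had -1.75 on 2 ChIP reads. E23, an ecdysone-induced transporter, had 2.91 and 2.26.

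**Figure D5:**
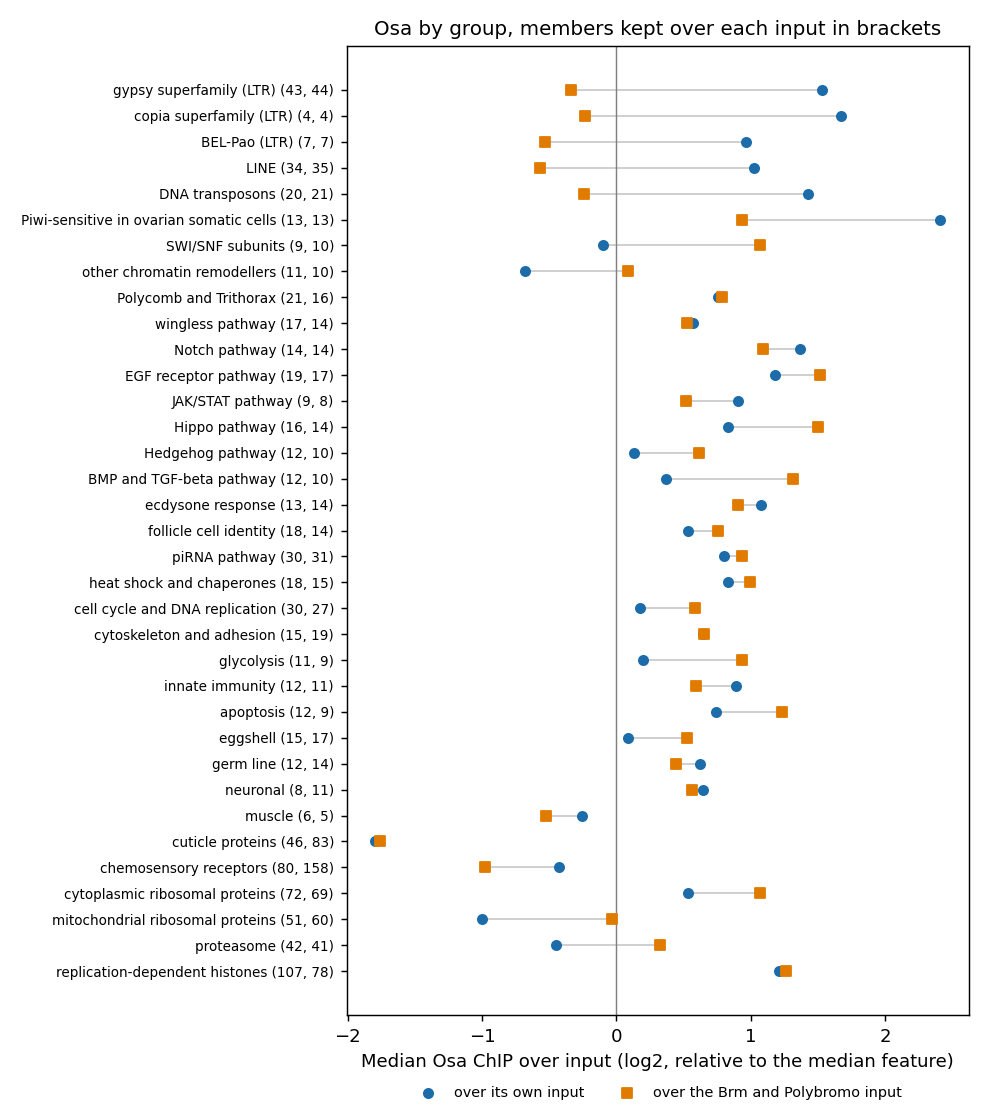
Median Osa enrichment (log2, relative to the median feature) of transposon classes and gene lists over the Osa input (circles) and over the Brm and Polybromo input (squares), with the number of members kept over each in brackets. The gypsy, copia, BEL-Pao, LINE and DNA transposon classes change sign between the inputs, whereas the Notch, EGF receptor and ecdysone lists stay between 0.91 and 1.52.

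The genes of the complex itself lay near the median feature over the Osa input and above it over the other. Of 9 SWI/SNF genes kept over the Osa input, 1 was 2-fold above (Act5C, the actin subunit, at 2.54) and none 2-fold below, with a median of -0.10. Over the other input 5 of 10 were 2-fold above, with a median of 1.07. The Osa input, made without antibody, had a median of 0.96 over the other input at these genes. Its part in the ChIP value was not tested. The backgrounds are 25.2% above and 30% below over the Osa input, and 25.6% above over the other. Mor, the scaffold subunit, had 0.94 and 1.78. Polybromo had 0.77 and 0.55, Bap170 -0.10 and 0.95, Bap111 -0.58 and 1.26, Bap60 -0.49 and -0.49, e(y)3 -0.10 and 0.26, and BCL7-like 0.82 and 1.69. Osa itself had -0.55 on 12 ChIP reads over the Osa input. Snr1 and Bap55 had too few Osa input reads to be kept there and had 1.19 and -0.44 over the other.

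Further lists were mixed. Over all features 25.2% were 2-fold above and 30% 2-fold below over the Osa input, and 25.6% were 2-fold above over the other. The shares of Hedgehog (25%), cell cycle (30%) and JAK/STAT (33.3%) genes above over the Osa input were near that background. For the BMP and TGF-beta pathway 5 of 12 were 2-fold above over the Osa input (median 0.37) and 6 of 10 over the other (1.32). For the JAK/STAT pathway these were 3 of 9 (0.90) and 3 of 8 (0.52), and for Hedgehog 3 of 12 (0.13) and 3 of 10 (0.61). Follicle cell identity genes had 7 of 18 (0.54) and 4 of 14 (0.76). Apoptosis genes had 6 of 12 (0.74) and 5 of 9 (1.23), but -1.30 for the 3 with at least 20 input reads. Heat shock and chaperone genes had 8 of 18 (0.83) and 7 of 15 (0.99). Cell cycle genes had 9 of 30 above and 5 below (0.18), and 11 of 27 above over the other input (0.59). Hsp26, a small heat shock protein, had 2.17 and 2.96, and polo, a mitotic kinase, 2.53 and 2.03.

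Polycomb and Trithorax genes, whose products hold genes off or on through development, had 7 of 21 members 2-fold above over the Osa input (median 0.76) and 7 of 16 over the other (0.79). Over all features 25.2% were 2-fold above and 30% 2-fold below over the Osa input, and 25.6% and 33.6% over the other. The 33.3% of Polycomb and Trithorax genes above over the Osa input was near that background. Ph-d had 2.00 and 2.21, and Psc, another Polycomb repressive complex gene, 1.95 over the Osa input. Other chromatin remodellers had 0 of 11 above and 4 below (36.4%, near the background) over the Osa input, with a median of -0.68. Over the other input these remodellers had 0 of 10 above and 2 below, with 0.09. Among them pont had 0 ChIP reads against 31 input reads. The piRNA pathway list had 14 of 30 above (0.80) and 13 of 31 over the other input (0.94). Its 11 genes with at least 20 input reads had a median of -0.00 over the Osa input. Spn-E, a helicase of that pathway, had 2.83 and 0.98, and tj, the transcription factor that marks follicle cells and drives piwi, had 2.16.

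Genes of tissues other than the follicle had both high and low values. Elav, a neuronal RNA-binding protein gene with 1.09 RPKM of RNA, had 13.4 RPKM in the ChIP, 3.60 in the Osa input and 5.34 in the other, with 3.13 (2.74 to 3.82) and 2.22. It overlaps arg, whose reads cannot be told apart from its own. Repo, the glial transcription factor gene, had -2.34 on 8 ChIP reads and 0.04 over the other input. Cuticle protein genes had 31 of 46 members 2-fold below over the Osa input, where the background is 30%, and 56 of 83 over the other, where it is 33.6%. Their medians were -1.80 and -1.76. Of the 46, 26 had no ChIP read, and with these set at 3 reads the median over the Osa input became -0.30. Chemosensory receptor genes had 36 of 80 below, with a median of -0.43 that became -0.02 on the same terms, while the median of all features became 0.18.

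Housekeeping genes did not move as one group. The backgrounds are 25.2% above and 30% below over the Osa input, and 25.6% above over the other. Cytoplasmic ribosomal protein genes had 27 of 72 members 2-fold above and 17 of 72 2-fold below over the Osa input, with a median of 0.53. Over the other input 36 of 69 were above (1.07). The 12 of them with at least 20 input reads had a median of -0.39 over the Osa input. RpS2 had 2.29 and 3.54, and RpS24 had 0 ChIP reads against 27 input reads. Mitochondrial ribosomal protein genes had 25 of 51 below, a median of -1.0 that became 0.00 with their 19 members without a ChIP read set at 3 reads, and -0.03 over the other input. Proteasome genes had 19 of 42 below, and -0.45 against 0.33 over the other. Replication-dependent histone genes are near-identical repeats whose reads cannot be assigned to a copy. Of the copies, 63 of 107 were above (1.21) and 47 of 78 over the other input (1.26). These copies are not separate measurements, and had a median of 4 Osa input reads. The Osa input over the other input had a median of 0.90 at these repeats. Polybromo was also high at these repeats, at 1.70, and Brm was at 0.11. Small nuclear RNA genes had 8 of 11 above over the Osa input, with snRNA:U4:39B at 3.49 and 7.08, from 88 ChIP reads, 12 in the Osa input and 1 in the other input.

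Over all kept genes Osa enrichment was lowest in the class with the least RNA, but it did not follow RNA level steadily over the Osa input. Genes with 100 RPKM of RNA or more had a median of 0.49 (334 genes) and genes under 1 RPKM -0.31 (4345), a difference of 0.80, while the classes of 1 to 10 and 10 to 100 RPKM had 0.19 and 0.10. Of the genes under 1 RPKM, 1222 had no ChIP read. With genes without a ChIP read set at 3 reads, the class medians, in order of RNA, were 0.08, 0.25, 0.21 and 0.50. With the other input the medians were 1.15 (341) and -0.62 (6940), a difference of 1.77. The Osa input over the other input differed in the same direction, at 1.0 and -0.75, and Brm had 0.78 and -0.18. Among the genes with at least 20 input reads the difference over the Osa input was 0.16, and the class medians, in order of RNA, were -0.35, -0.11, -0.53 and -0.20. The lowest class there was thus that of 10 to 100 RPKM. Across 1138 genes with 20 reads in both inputs the Spearman correlation with RNA was 0.03 over the Osa input, and across 1113 genes 0.17 over the other. Long coding transcripts stood above short ones, at 0.39 for 4000 bases and above and -0.89 under 1000 bases. Of the latter 596 of 1511 had no ChIP read, and with these set at 3 reads the median was 0.08. With at least 20 input reads the same 2 length classes had 0.23 (858 genes) and -1.52 (147). Over the other input they had 0.29 and -1.30. Chromosomes differed little, from -0.09 on X and 3R to 0.13 on 2L, with 0.37 on chromosome 4 over 32 genes, but over the other input chromosome 4 had -0.14 over 72 genes and X 0.16.

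The RNA after knockdown of Brm did not separate by Osa enrichment. Among 3589 genes with a mean of at least 5 RPKM over the Brm and control RNA libraries, 4.10% were 2-fold lower and 3.43% 2-fold higher without Brm, relative to the median gene. Of the 866 with Osa 2-fold above over its own input, 5.31% were lower and 3.35% higher. Of the 781 with Osa 2-fold below, 3.46% were lower and 3.97% higher. For the 545 genes above over both inputs 4.95% were lower and 3.85% higher. These are differences between single libraries.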

How the data were processed

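The authors deposited RPKM, reads scaled to feature length and library size, for 35502 rows in each library, with 1 library per group. The build dm6 and the aligner Bowtie2 (2.2.4) are those named, per the submitters' processing notes; how reads were counted, and how those matching several copies were assigned, is not given in the sources used here. Per the labels' protocols, ChIP DNA was cross-linked with formaldehyde and libraries were made with a ThruPLEX kit. Of the RNA columns, 4 matched no sample and were not used. Ovary libraries were not analysed here.

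Library totals and feature lengths that turn all RPKM into whole reads (tolerance 0.001 read) were recovered from the deposited values. Transcripts were matched to genes with the RefSeq table of Release 6, the assembly called dm6, whose gene coordinates are printed 1-based. Of the rows, 34925 matched a gene, 402 did not, 119 were fly transposons and 56 were transposons of other species. Enrichment was log2 of ChIP over input, with the 5th percentile of nonzero input added to both, for rows with input at or above the median of all rows, 1 row per gene (the longest transcript), relative to the median kept feature (centres of -1.37 over the Osa input and -0.97 over the other). A call is a 2-fold difference from that median. Named were, among features with at least 20 reads in input and ChIP, the 12 highest and 8 lowest genes and the 10 highest and 6 lowest transposons, up to 4 members of each gene list with at least 10 input reads, and the SWI/SNF subunits; ZAM, gtwin, invader4, HeT-A, Helena, Q-element and frogger were chosen after their values were seen. Some of the features this rule names are not reported here. The members and lists were chosen with earlier results of these data known. Steps were tested on simulated reads. Python 3.11.15 with pandas 2.3.3 and scipy 1.17.1 was used.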

Additional observations from a re-analysis of the deposited data

Results flagged for a closer look

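The LINE element Rt1a lay on opposite sides of the median feature in the 2 pairs of Osa libraries. It had -0.32 over the Osa input in control cells and 0.37 over its own input in Piwi-depleted cells, and the counting intervals of these values did not reach 0. With 1 library a side the difference was not tested.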

How the results depend on the processing

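No paired analysis was possible because each group has 1 library. The difference between transposons and genes over the Osa input, 1.34, became -0.41 over the other control input, 0.067 over both inputs added, 1.04 with the 25th percentile added and 1.69 for features at or above the 75th percentile. Over the other input, of the lists whose median was at least 2-fold from the median feature, those of the gypsy, copia, LINE and DNA classes and of small nuclear and nucleolar RNA genes changed sign, to -0.34, -0.23, -0.57, -0.24 and -2.58. Smaller medians also changed sign, those of BEL-Pao (-0.53), SWI/SNF (1.07), proteasome (0.33) and other remodellers (0.09) among them. Of the named features 26 changed sign, and 14 of these were at least 2-fold from the median over the Osa input: htk (0.030), Srrm1 (0.23), MBD-R2 (0.13), HBS1 (1.23), E(spl)m8-HLH (0.43), ihog (0.57), gbb (0.25), Lim1 (0.086), mino (0.98), PyK (0.49), Debcl (1.69), Drice (0.77), VAChT (-0.036) and repo (0.036). The remaining 12, Bap111 (1.26) and Bap170 (0.95) among them, lay within 2-fold. With at least 20 input reads 6 list medians moved: gypsy 1.82, BEL-Pao 1.19, telomeric 1.33, Piwi-sensitive 2.63, apoptosis -1.08 and eggshell 2.37, relative to the features then kept. The numbers of features 2-fold above and below, 2410 and 2867, became 1541 and 1830 above the 75th percentile, 615 and 737 with at least 20 reads in the input, 4114 and 4886 with all rows kept, and 472 and 5643 without centring. The number above was 1567 with transcripts of a gene summed. Osa minus Brm at transposons over the shared input was -0.07, and -0.39 with transcripts summed. Keeping features at or above the median of both inputs, a choice made after seeing the data, gave -0.70 over the other input and -1.87 for the Osa input over the other, whose value was otherwise -1.06. The cause of these shifts was not tested. The median gene had 13 input and 8 ChIP reads, which limits single genes.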
